A study of Mus musculus with 4 samples.

Results

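The genes described here are 52 regulators and markers of neural stem cells, examined as targets of a piggyBac gene trap in haploid neural stem cell-like cells. They were taken by symbol from a given list of neural progenitor transcription factors, progenitor markers and Notch signalling genes, out of 21035 mouse genes with a curated coding transcript. Of the 52 members, 25 had at least 1 read in either mutant library and 27 had none. Of all 21035 genes, 26.6% had a read in either library, a share that depends on gene length as described below.

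The measured material was genomic DNA of cells with a single chromosome set on a 129Sv background. They were derived from haploid embryonic stem cells through embryoid bodies in N2B27 medium with FGF2, EGF, the BMP receptor inhibitor LDN193189, the activin and TGF-beta receptor inhibitor SB431542 and a ROCK inhibitor (Y-27632, Thiazovivin or both). Both libraries are of these cells, which received the trap plasmid together with transposase and were kept under G418, and the labels state no treatment that sets the libraries apart. Splinkerette PCR amplified the ends of the inserted transposon with the adjoining DNA for sequencing, and each library is 1 table of reads per gene that pools 2 samples. The tables have no column per sample, so there is no replicate check here. The sources used here do not state whether the 2 samples of a library are separate cultures or preparations of the same cells, nor what the last number in their titles means. Ratios between the libraries are given with intervals that describe counting error in these 2 pools of reads, and no p-value was computed. The reads come from DNA and carry no RNA level, so they do not check the cell type that the labels give.

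A neural stem cell is held in a dividing, undifferentiated state by a network of transcription factors, among which the SOX, PAX, POU and nuclear factor I families are prominent. Notch signalling acts beside them: a ligand on a neighbouring cell triggers cleavage of the receptor, whose freed domain joins the DNA-binding protein RBPJ and a Mastermind coactivator to switch on Hes genes, which repress neuronal differentiation. A gene trap transposon inserts at TTAA tetranucleotides and interrupts the transcript of the gene it lands in. In a haploid cell no other allele is left to make up for the interrupted one.

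Library 1 held 55442 nonredundant and 877870 redundant reads over 4184 listed genes, and library 2 held 48750 and 1300140 over 3168 genes. Reads are PCR products, so intervals below cover counting error only and a read number does not count insertions or cells. Of the listed genes, 53.7% in library 1 and 59.7% in library 2 had exactly 1 nonredundant read. Genes of the Y chromosome were listed as well, 3 in library 1 and 7 in library 2, each with at most 2 reads. Whether these cells carry a Y chromosome is not given in the sources used here. A gene at 0 may have a share of reads of up to 0.00541% in library 1 and 0.00615% in library 2, the limits that a count of 0 allows.

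In a gene trap the resistance marker is usually transcribed from the promoter of the trapped gene. The upstream windows of the 3 members with 100 or more reads in a library are therefore printed here. Each is the 250 bases before the most upstream start in the RefSeq table (build GRCm38.p6, not the build of the reads), 5′ to 3′ on the strand of the gene, with the piggyBac target TTAA in capitals. Nfia lies on the plus strand (chr4:97581693-97581942), Maml2 on the plus strand (chr9:13297708-13297957) and Sox6 on the minus strand (chr7:116038745-116038994).
Nfia: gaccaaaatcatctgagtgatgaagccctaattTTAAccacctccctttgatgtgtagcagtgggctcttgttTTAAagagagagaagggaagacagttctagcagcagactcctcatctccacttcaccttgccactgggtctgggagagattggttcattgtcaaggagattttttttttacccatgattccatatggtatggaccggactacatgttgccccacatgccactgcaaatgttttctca
Maml2: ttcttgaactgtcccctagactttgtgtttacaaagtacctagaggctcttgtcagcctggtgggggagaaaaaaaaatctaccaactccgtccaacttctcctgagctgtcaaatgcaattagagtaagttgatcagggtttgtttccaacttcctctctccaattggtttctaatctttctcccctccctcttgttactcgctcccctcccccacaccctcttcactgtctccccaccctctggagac
Sox6: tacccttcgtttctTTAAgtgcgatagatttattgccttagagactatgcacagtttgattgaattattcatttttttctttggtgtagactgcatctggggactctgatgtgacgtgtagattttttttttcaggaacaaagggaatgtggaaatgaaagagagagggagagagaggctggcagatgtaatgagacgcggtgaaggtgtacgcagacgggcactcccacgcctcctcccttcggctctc

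The Nfia window held 2 TTAA, the Sox6 window 1 and the Maml2 window 0. TTAA reads the same on both strands. The shares that follow are over all upstream windows, of which a gene can have several: Nfia has 1, Maml2 2 and Sox6 6. TTAA was found in 49% of the 32851 windows of all genes. It was found in 22 of the 36 windows of the listed members and in 14 of the 28 windows of the unlisted members. Of the 52 members, 44 had a window. The read tables give no insertion position, so no read can be placed in or outside these windows.

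At least 1 nonredundant read was found for 23 of the 52 members in library 1 (44.2%, exact Clopper-Pearson 95% interval 30.5 to 58.7), where 19.9% of all genes were listed. In library 2 it was 15 members (28.8%, 17.1 to 43.1) against 15% of all genes. Either library listed 25 members, with 26.6% of all genes as background, and both listed 13, with a background of 8.25%. The intervals treat members as independent, although the members were chosen with earlier results of these data known and not sampled. Member shares beside those of all genes, here and by length class, are therefore a description only. At 2 or more reads the counts were 13 members in library 1 (background 9.19%) and 10 in library 2 (6.07%). At 10 or more reads they were 5 in library 1 (background 2.37%) and 5 in library 2 (1.4%), which makes 9 different genes (3.56% for either library) with 1 of them in both (0.204%). All these shares lie above those of all genes, before gene length is taken into account. The listed members had a median of 2 reads in library 1 and 4 in library 2, against 1 read for all listed genes in each library.

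**Figure D1:**
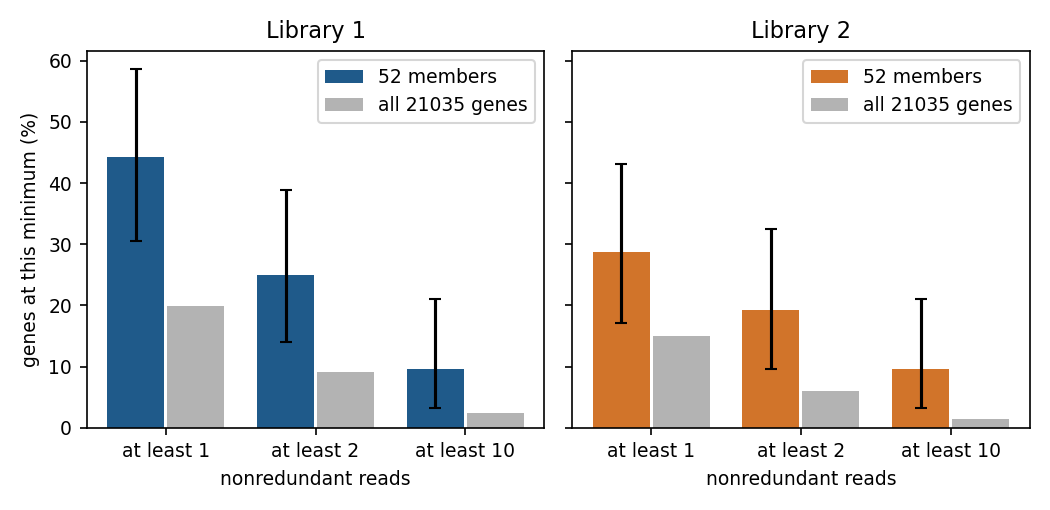
Percent of genes (vertical axis) with at least 1, 2 or 10 nonredundant reads in library 1 and library 2. Coloured bars are the 52 members with exact Clopper-Pearson 95% intervals, grey bars all 21035 genes; the coloured bar is the higher one at each minimum.

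Gene length goes with these counts. Genes were ordered by their length in the RefSeq table and split into 10 length classes of like size, of which class 10 is the longest. The share listed in library 1 rose from 0.333% in class 1 to 71.7% in class 10. The members sit at both ends of this order: 23 are in classes 1 to 5 and 19 in class 10. Of the 23 shorter members only Nr2f2, at 1 read, was listed in either library (4.35%, exact 95% interval 0.11 to 21.9), where 6.75% of all genes of these classes were. In class 10, 17 of the 19 were listed (89.5%, exact 95% interval 66.9 to 98.7), where 81.7% of all genes of that class were. At 10 or more reads class 10 held 8 of 19 members (42.1%, exact 95% interval 20.3 to 66.5) against 19.3% of its genes. Class 10 was also split in 2 parts of equal size. The longer part held 7 of 13 members at 10 or more reads (53.8%, exact 95% interval 25.1 to 80.8) against 27.7% of its genes. The shorter part held 1 of 6 (16.7%, 0.421 to 64.1) against 10.8%. Both intervals include the share of all genes of that part.

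**Figure D2:**
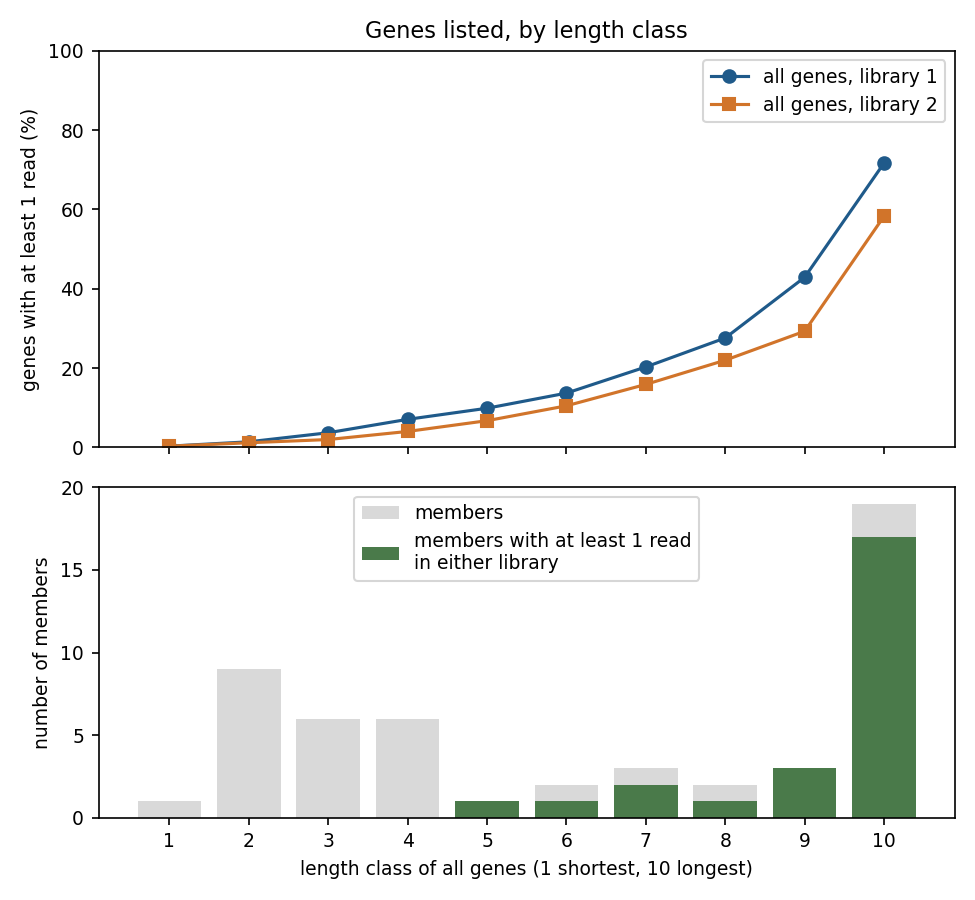
Upper panel: percent of all genes with at least 1 nonredundant read in library 1 (circles) and library 2 (squares) by length class, from the shortest to the longest. Lower panel: number of members in each class (grey) and of those with at least 1 read in either library (green). In class 10, 17 of 19 were listed, against 81.7% of its genes, and in classes 1 to 5, 1 of 23, against 6.75%.

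Reads on the members were held by few genes. In library 1 the 52 members took 496 nonredundant reads, or 0.895% (0.818 to 0.977). In library 2 they took 832, or 1.71% (1.59 to 1.83). Nfia alone held 70.4% of the member reads in library 1. In library 2, Sox6 held 49.3%, and Sox6 and Maml2 together 83.9%. Without the leading gene the member reads fell to 147 in library 1 and 422 in library 2. These leaders, Nfia, Sox6 and Maml2, were the 3 members with 100 or more reads in a library, a mark that 0.946% of all genes reached.

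**Figure D3:**
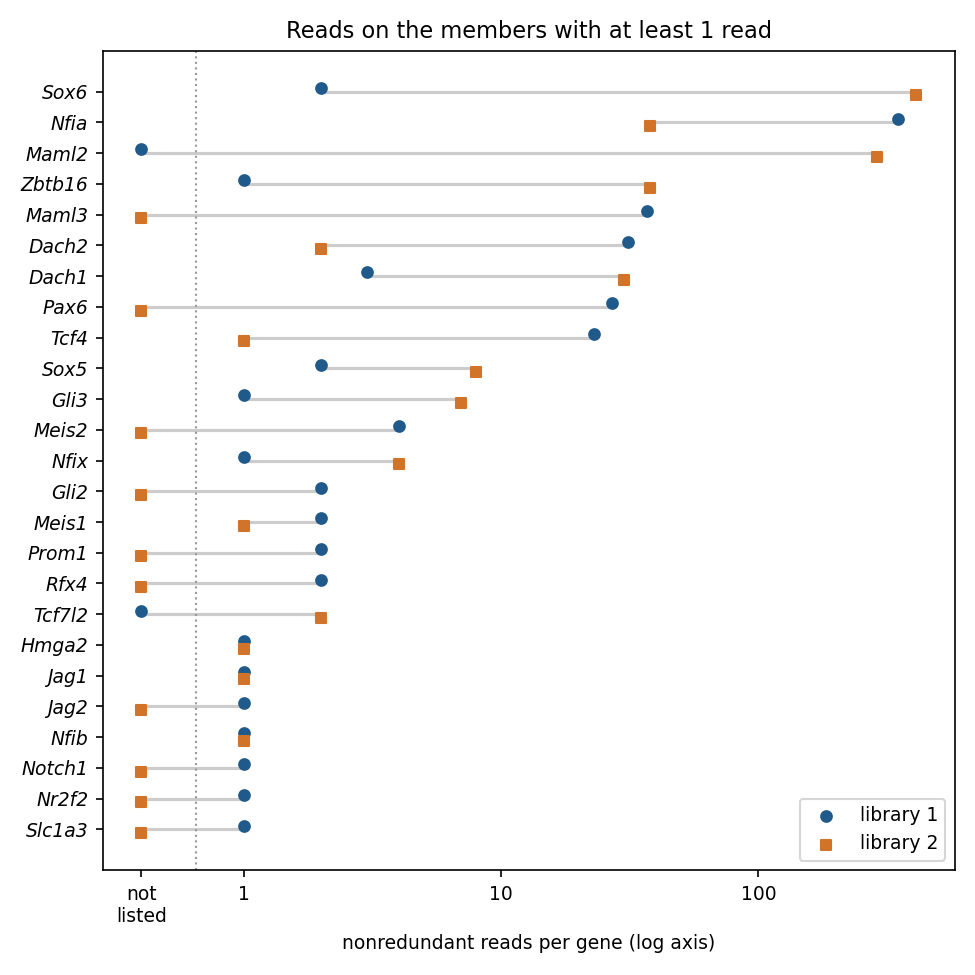
Nonredundant reads (log axis) of the 25 members with at least 1 read, 1 row per gene, in library 1 (circles) and library 2 (squares); points left of the dotted line were not listed in that library. Of the 9 genes with 10 or more reads, Nfia alone has that many in both libraries.

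Among the Notch members most reads were on the Mastermind genes Maml2 and Maml3. Their relative Maml1, counted with the other Notch pathway genes below, is in length class 8 and had 1 read in each library. Mastermind proteins are the coactivators that the cleaved receptor recruits to its target genes. Maml2 had 0 reads in library 1 and 288 in library 2 (0.591%, 95% interval 0.525 to 0.663), where it ranked 30. Its share of library 2 was 109-fold higher with library 1 set at the limit of 3 counts, a value that leaves out the counting error of the 288 reads. Maml3 had 37 reads in library 1 (0.0667%, and 0.00513% of redundant reads) and 0 in library 2. Its share was 10.8-fold higher in library 1 with library 2 set at the same limit, again without the counting error of its reads. Maml2 and Maml3 had their reads in different libraries. Of all 749 genes with 10 or more reads in a library, 5.74% had that many in both. Maml2 and Maml3 are both among the longest genes, at length percentiles 98.4 and 98.5. As many reads as Maml2 or more were found in 0.713% of the genes of its length class in library 2, and for Maml3 the share in library 1 was 7.13%.

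Of the 6 receptor and ligand genes of Notch, 3 were listed in either library (50%, where 26.6% of all genes were), each with 1 read, which is also the median of all listed genes. The receptor gene Notch1 had 1 read in library 1 and 0 in library 2, and Notch2 and Notch3 had 0 in both. The ligand gene Jag1 had 1 read in each library, Jag2 had 1 in library 1, and Dll1 had 0. Hes1 and Hes5, the repressors that Notch switches on, were in neither library. Both Hes genes lie in length classes 1 and 2, where few genes of any kind were listed. Notch2 is in class 10, of which 71.7% and 58.3% were listed in libraries 1 and 2. It lies in the shorter part of that class, where the shares were 60.5% and 43%.

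Other genes of the Notch pathway were close to the background. Of 50 such genes (ligands, glycosyltransferases, secretase subunits, ubiquitin ligases, RBPJ partners and Hey factors), 17 had a read in either library (34%) and 5 had 2 or more (10%), where 26.6% and 12.1% of all genes did. The one with 10 or more reads was Crebbp, an acetyltransferase that works with the Notch activation complex and with many other factors, at 0 reads in library 1 and 11 in library 2.

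Of the 7 SOX genes, 2 were listed in either library, where 26.6% of all genes were. These 2, Sox5 and Sox6, encode long SOXD proteins, which lack an activation domain of their own and influence the timing of neural and glial differentiation. Sox6 had 2 reads in library 1 and 410 in library 2 (0.841%, 95% interval 0.762 to 0.926), the rank of 18 in that library. The share in library 2 was 233-fold that in library 1 (95% interval 64.1 to 1932), and 1225-fold in redundant reads. Sox5, which is longer still at the 99.7 percentile, had 2 and 8 reads. Its share was 4.55-fold that in library 1 (95% interval 0.908 to 44), and 8.78-fold in redundant reads. Sox1, Sox2 and Sox3, the progenitor factors of the SOXB1 group, and Sox9 and Sox21 had 0 reads in both libraries; all of them are in length classes 2 and 3.

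Nuclear factor I genes, whose products act in gliogenesis and in the switch from early to late progenitors, included the leading member of library 1. Nfia had 349 reads there (0.629%, 95% interval 0.565 to 0.699) and 38 in library 2 (0.0779%, 0.0552 to 0.107). It was the only member with 10 or more reads in both libraries, and its share was 8.08-fold higher in library 1 (95% interval 5.77 to 11.6) in nonredundant reads and 136-fold higher in redundant reads. In its length class, 0.618% of genes had as many reads or more in library 1, and 3.47% in library 2. Its relatives had few reads: Nfib had 1 read in each library and Nfix 1 and 4. Rfx4, a winged-helix factor of the neural tube and of cilia, had 2 reads in library 1.

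Among the progenitor factors, Pax6, Zbtb16 and Dach1 each had reads mainly in 1 library. This was common: of all 749 genes with 10 or more reads, 82.1% had over 90% of their summed shares in 1 library. Pax6, a paired-box factor that specifies cortical and retinal progenitors, had 27 reads in library 1 (0.0487%, and 0.00535% of redundant reads) and 0 in library 2. Its share was 7.91-fold higher in library 1 with library 2 set at 3 counts, without the counting error of the 27 reads. Pax6 was the one member with 10 or more reads outside length class 10: its length is at the 64.4 percentile, and 1.52% of the genes of its class had as many reads or more in library 1. Zbtb16, a BTB zinc finger repressor found in self-renewing progenitors, had 1 read in library 1 and 38 in library 2. The ratio was 43.2 towards library 2 (95% interval 7.3 to 1751), and lower, at 32.4, in redundant reads. Dach1, a corepressor that takes part in eye, limb and brain development, had 3 and 30 reads, a ratio of 11.4 towards library 2 (3.54 to 58.2), which was 288 in redundant reads. Its X-linked relative Dach2 had the opposite pattern, with 31 and 2 reads and a ratio of 13.6 towards library 1 (3.47 to 118), which was 23.1 in redundant reads.

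The remaining homeodomain genes had few reads. Meis2 had 4 reads in library 1, and Meis1 had 2 and 1; both encode cofactors of HOX and PBX proteins. Pou3f1, Pou3f2, Pou3f3, Lhx2, Emx2 and Otx2, factors of progenitor identity and forebrain patterning, had 0 in both libraries. The POU3 genes have compact coding units and are in length classes 2 and 3.

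Tcf4, an E-protein that pairs with proneural factors, had 23 reads in library 1 (0.0415%) and 1 in library 2, a ratio of 20.2 (95% interval 3.28 to 833), which was 49.2 in redundant reads. Its helix-loop-helix companions Olig2 and Id4 had 0. Of the HMG-box factors of Wnt signalling, Tcf7l2 had 2 reads in library 2 and Tcf7l1 had 0. Both are in length class 10, Tcf7l2 in its longer and Tcf7l1 in its shorter part. The Hedgehog effector Gli3 had 1 and 7 reads, a ratio of 7.96 (1.02 to 359) that was 18.2 in redundant reads, and Gli2 had 2 in library 1; Zic1 and Zic2 had 0.

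Of the 5 markers used to recognise neural stem cells, 2 were listed in either library (40%, where 26.6% of all genes were). Prom1, which encodes the membrane glycoprotein prominin, had 2 reads and Slc1a3, a glutamate transporter of radial glia, had 1, all in library 1. Both are in length class 9, of which 56.9% of genes were listed in either library. The intermediate filament genes Nes and Vim and the lipid-binding protein gene Fabp7 had 0; Fabp7 is in length class 2 and the other 2 are in class 4, of which 2.33% and 10.2% of genes were listed in either library. Of the orphan nuclear receptors, Nr2f2 had 1 read in library 1, and Nr2f1 and Nr2e1 had 0. Hmga2, a chromatin protein that sustains young progenitors, had 1 read in each library, and the Polycomb gene Bmi1 had 0. Among all 27 unlisted members, 22 are in length classes 1 to 5, and Notch2 and Tcf7l1 are the 2 in class 10.

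The members with most reads were mostly carried by 1 library. Of the 9 with 10 or more reads, 8 had over 90% of their summed shares in 1 library, 4 in each. That is 88.9%, and the same held for 82.1% of all 749 genes with 10 or more reads.

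The members differed in their number of redundant reads per nonredundant read. Among genes with 20 to 50 nonredundant reads, the median was 3.03 redundant reads per nonredundant read in library 1 (139 genes) and 3.81 in library 2 (90 genes). Dach1 in library 2 had 1279 redundant reads on 30 nonredundant ones, a ratio of 42.6 and the highest of those 90 genes. Zbtb16, with 38 nonredundant reads in the same library, had 48 redundant reads, a ratio of 1.26, and 8.89% of these genes were as low or lower. In library 1, Maml3 had a ratio of 1.22, Pax6 of 1.74, Dach2 of 3.52 and Tcf4 of 5.78. The 3 leaders were also high among genes with 100 or more reads: Nfia had a ratio of 30.6 in library 1 (median 12), and Maml2 had 21.4 and Sox6 17.7 in library 2 (median 11.2). Nfia had a ratio of 3.05 in library 2. How redundant and nonredundant reads were told apart is not given in the sources used here.

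**Figure D4:**
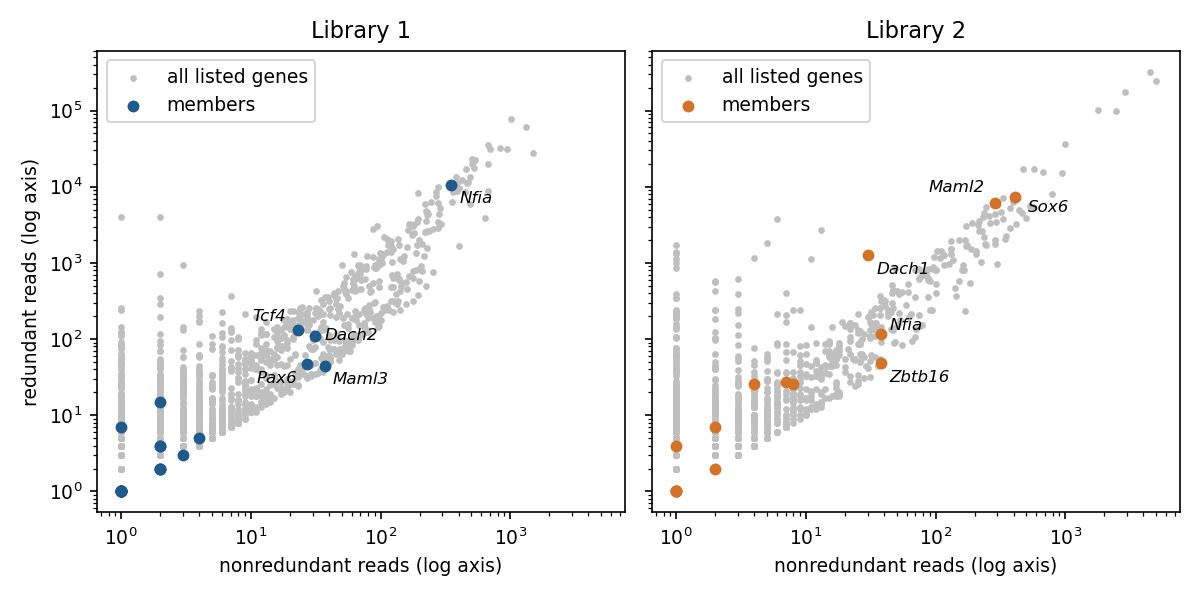
Redundant against nonredundant reads per gene (both log axes) in library 1 and library 2; grey points are all listed genes, coloured points the members, named from 10 nonredundant reads on. Dach1 in library 2 lies above the other genes of like nonredundant reads, at 1279 on 30 reads, while Zbtb16 lies near the lower edge.

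By the RefSeq table, the members with 10 or more reads are spread over the genome: Nfia on chromosome 4, Maml2 and Zbtb16 on 9, Maml3 on 3, Sox6 on 7, Pax6 on 2, Dach1 on 14, Tcf4 on 18 and Dach2 on X. Genes next to these members were examined as well. For the 9 members with 10 or more reads, the nearest 2 genes on each side in the RefSeq table were compared, 36 in all. Of these, 34 had at most 4 reads in each library and 2 (5.56%) had 10 or more in a library, a mark that 3.56% of all genes reached. These 2 are named after their values were seen. Insc, next to Sox6, had 136 reads in library 1 and 0 in library 2, the reverse of Sox6. Them7, near Pax6, had 0 and 12. Elp4, which overlaps Pax6 in that table, had 1 read in each library; how reads in overlapping genes were assigned is not given in the sources used here.

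Relatives of the members in the same gene families were listed about as often as all genes. Of 86 such genes, 16 had a read in library 1 and 9 in library 2, which is 18.6% and 10.5% of them against 19.9% and 15% of all genes. At 10 or more reads in either library there were 4 (4.65%, where 3.56% of all genes were). These were Pbx3 (102 reads), a TALE homeodomain partner of MEIS proteins, Slc1a4 (64), a neutral amino acid transporter, Tcf12 (29), an E-protein like Tcf4, and Pknox2 (12), another TALE homeodomain gene. All 4 had these reads in library 1. In library 2, Pbx3 and Pknox2 had 0, Slc1a4 had 1 and Tcf12 had 4.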

How the data were processed

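Splinkerette PCR products of genomic DNA were sequenced on a HiSeq instrument, per the labels' protocols. BWA, CASAVA and the build mm9 are named, without versions, per the submitters' processing notes. Each deposited table holds raw counts by the authors, per the file headers: nonredundant and redundant reads per gene, not normalized, with the 2 samples of a library pooled. The 52 members were matched by symbol, and a gene missing from a table was set to 0. The background is the 21035 genes with an NM transcript in a RefSeq table (GRCm38.p6), to which 4176 and 3162 of the 4184 and 3168 listed genes were matched by transcript, then symbol or synonym. That build is not the authors', so its lengths served only to order genes and its order to find neighbours. Intervals are exact Clopper-Pearson 95% intervals, for a ratio of shares conditional on the summed reads (SciPy 1.17.1). Matching and intervals were checked on simulated data. The members, the other lists and the role groups were chosen with earlier results of these data known. By the naming rule every member is accounted for, and genes of the other lists are named from 10 reads on. Maml1 is named besides, as a relative of Maml2 and Maml3.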

Additional observations from a re-analysis of the deposited data

How the results depend on the processing

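The number of members listed moved with the read minimum. In library 1 it was 23, and 13 at 2 nonredundant, 5 at 10 nonredundant, 14 at 2 redundant and 6 at 10 redundant reads. In library 2 it was 15, and 5 at 10 nonredundant and 8 at 10 redundant reads, while 2 nonredundant (10) and 2 redundant reads (11) stayed within 1.5 times. Members in both libraries numbered 13, then 5 and 1 at 2 and 10 nonredundant reads. Of all genes, 8.25%, 3.15% and 0.204% were in both libraries at the same minimums. The share of all genes in a single library fell with the minimum too. At 2 redundant reads it was 11.7% in library 1 and 8.4% in library 2. At 10 redundant reads it was 4.35% in library 1 and lower in library 2. The share of all genes listed, 19.9% and 15%, was within its counting interval with protein coding genes only or with chromosomes 1 to 19 and X only. The share of reads on the members depends on few genes: in library 1 it was 0.895%, and 1.26% in redundant reads, 0.267% without the leading member and 1.07% without the 10 genes with most reads. In library 2 it was 1.71%, and 1.15%, 0.873% and 2.96% in the same settings. Library 2 had the higher share in nonredundant reads and library 1 in redundant reads. Among members in both libraries the log2 ratio of shares, library 1 over library 2, changed sign in redundant reads for Hmga2 (3.37), Jag1 and Nfib (0.57 each). All 3 have 1 nonredundant read in each library. Jag1 and Nfib have 1 redundant read in each as well, so their ratios are set by the library totals alone. Hmga2 has 7 and 1 redundant reads, and the cause was not tested. The log2 ratio kept its direction and moved by over 1 for Sox6 (-7.87 to -10.26), Nfia (3.01 to 7.09), Dach1 (-3.51 to -8.17), Tcf4 (4.34 to 5.62), Gli3 (-2.99 to -4.19), Meis1 (0.81 to 4.47) and Nfix (-2.19 to -4.13). The share of a single member in redundant reads left its counting interval in 19 of 38 cases and was lower in 17 of these; Nfia in library 1 and Dach1 in library 2 were higher. The split of length class 10 was chosen after seeing the data. No paired analysis was possible because each table pools its 2 samples, and for the same reason no sample could be left out.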
